A study of Mus musculus with 2 samples.

Results

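Mir183, Mir96 and Mir182 are the 3 microRNA genes of a single cluster on mouse chromosome 6, and their levels were followed in the embryonic heart. They were taken from the count tables by Ensembl identifier, matched to symbols in GENCODE M21, and are 3 of 1973 listed miRNA genes. All 3 had at least 10 counts in each library, the limit used here to call a gene detected, as did 365 genes in all. The hearts came from B6NCrl embryos, healthy and of both sexes, at embryonic day 16.5, and no treatment or engineered allele is named. The labels give one group of 2 biological replicates. Replicate 2 pooled 41 embryos. No embryo number is given for replicate 1 in the sources used here, and it is called a pool because its label names mixed sex. No second condition exists, so the question asked of the 3 genes was how abundant each was and how far they moved together between the pools.

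MicroRNAs are short RNAs cut from hairpin precursors. They guide repressor complexes to messenger RNAs, mainly through the seed, bases 2 to 8 from the 5′ end. The miR-183, miR-96 and miR-182 hairpins are conserved as a cluster in vertebrates. They are best known from sensory cells, the photoreceptors of the retina and the hair cells of the inner ear, where mutation of the miR-96 seed causes hearing loss in mice. The cluster is also found in other neural and epithelial cells.

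The 3 mature 5p sequences carry the relation between the genes and are shown first, each with its seed in capitals (RefSeq, GRCm38.p6, minus strand). The fourth sequence, from the plus strand of chromosome 13, is the only other mature miRNA among 1738 in the RefSeq table with any of these 3 seeds.
mmu-miR-183-5p: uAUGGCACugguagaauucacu
mmu-miR-96-5p: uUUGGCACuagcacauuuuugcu
mmu-miR-182-5p: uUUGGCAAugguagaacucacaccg
mmu-miR-1271-5p: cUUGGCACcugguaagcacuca
The 3 seeds were alike but not the same, so the genes fell into 3 seed groups of 1 member each. Counted from base 1 at the 5′ end, miR-96 and miR-182 differed within the seed by 1 substitution, C8A. Between miR-96 and miR-183 the seed also differed by 1 substitution, U2A. The seeds of miR-183 and miR-182 differed by both, A2U and C8A. Over all compared bases, seed included, the order was different. Over the first 22 bases miR-183 and miR-182 were identical at 18, with an unbroken match from base 9 to base 16, while miR-96 and miR-183 were identical at 13. Over 23 bases miR-96 and miR-182 were identical at 12. The seed of miR-96 was shared with miR-1271, whose gene Gm24195 (ENSMUSG00000080454.2, chromosome 13, 54578113 to 54578249) had 0 counts in both libraries. A count of 0 allows up to 3 counts, or 0.463 CPM (counts per 1000000 sense counts at miRNA genes) in replicate 1 and 0.514 CPM in replicate 2. Among genes with this seed, reads were therefore found at Mir96 alone.

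The counts are made per hairpin gene, so the hairpins show what each count covers. They are printed with both mature arms in capitals, the 5p arm first.
Mir183: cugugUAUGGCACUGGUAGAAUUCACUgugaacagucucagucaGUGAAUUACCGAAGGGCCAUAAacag
Mir96: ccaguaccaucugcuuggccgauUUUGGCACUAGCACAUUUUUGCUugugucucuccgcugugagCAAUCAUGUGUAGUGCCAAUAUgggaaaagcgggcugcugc
Mir182: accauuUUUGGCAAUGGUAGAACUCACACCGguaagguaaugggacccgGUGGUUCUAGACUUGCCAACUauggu
Reads of the 5p and 3p arms are summed in each gene, and their shares were not analysed here. The annotated hairpins are 70 bases for Mir183, 106 bases for Mir96 and 75 bases for Mir182, with 17, 19 and 18 bases between the arms. RNAfold gave minimum free energies of -26.2, -47.9 and -29.9 kcal per mol, in the same order, the longest hairpin having the lowest. None of the 3 hairpins shared 20 bases with any other of the 2202 miRNA hairpins in GENCODE M21, and the longest shared stretch was 11 bases. By the same search, 83 of the 365 detected genes (22.7%) shared 20 bases with another hairpin. Reads with more than one match in the genome are left out of every gene's count, and by this search the 3 genes have no near copy with which to share reads.

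In mm10 coordinates Mir183 (ENSMUSG00000065619.2) lies at 30169668 to 30169737 of chromosome 6, Mir96 (ENSMUSG00000065586.1) at 30169446 to 30169551 and Mir182 (ENSMUSG00000076361.1) at 30165918 to 30165992. All are on the minus strand, so Mir183 comes first in the direction of transcription. Mir183 and Mir96 are 116 bases apart, whereas 3453 bases separate Mir96 from Mir182. The 3 hairpins span 3820 bases, and no other annotated gene overlaps any of them, so they are intergenic in this annotation. Upstream, Rncr4, a long non-coding RNA known from the retina, starts 3155 bases beyond Mir183 on the opposite strand. The nearest protein-coding genes are Nrf1, a transcription factor of mitochondrial biogenesis, 12.5 kb downstream, and Ube2h, a ubiquitin-conjugating enzyme, 41.6 kb upstream.

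**Figure D1:**
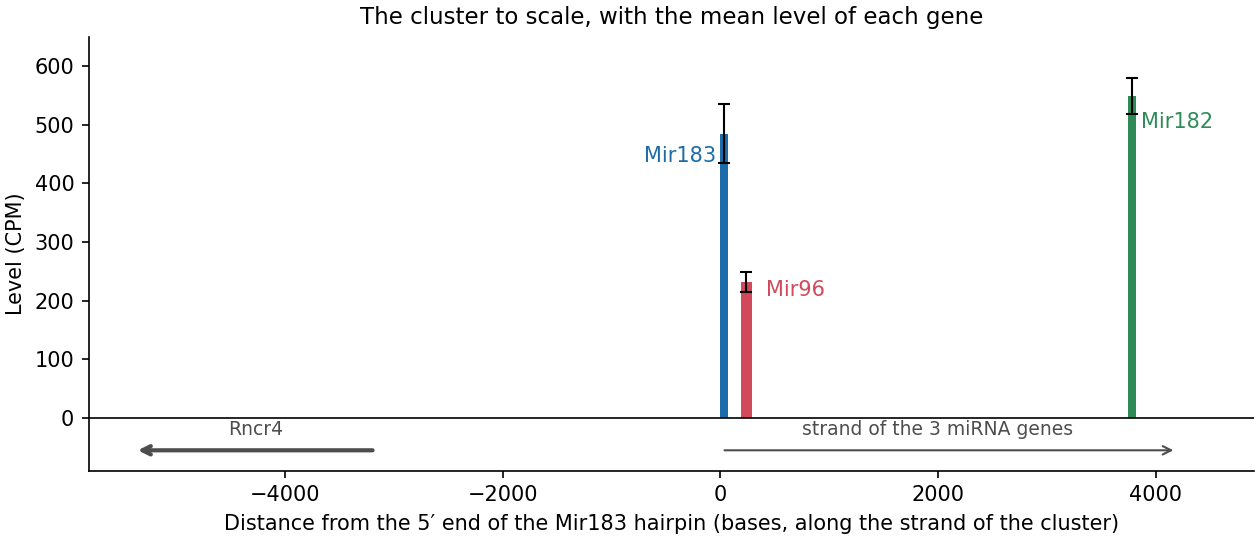
Mean level of each gene (CPM, bars) with the SD of the 2 libraries (error bars) against distance in bases from the 5′ end of the Mir183 hairpin, bar width being hairpin length. Mir183 and Mir96 lie 116 bases apart with means of 485 and 232 CPM, and Mir182, at 549 CPM, lies 3453 bases further along; arrows give the strands of the cluster and of Rncr4.

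All 3 genes were found at moderate levels in both heart pools. Mir182 had 3415 counts in replicate 1 and 3336 in replicate 2, Mir183 had 3375 and 2626, and Mir96 had 1584 and 1285. As relative abundance, Mir182 stood at 528 CPM in replicate 1 (Wilson 95% interval 510 to 546) and 571 CPM in replicate 2 (552 to 591). Mir183 stood at 521 CPM (504 to 539) and 450 CPM (433 to 467). Mir96, the lowest of the 3, stood at 245 CPM (233 to 257) and 220 CPM (208 to 232). Mir96 was below the other two in each library, with no overlap of values, while the values of Mir182 and Mir183 lay close together in replicate 1 and apart in replicate 2. The mean levels were 549 ± 30.8 CPM for Mir182, 485 ± 50.8 CPM for Mir183 and 232 ± 17.5 CPM for Mir96 (SD, n = 2). By counted reads, Mir182 ranked 104 and 100 among all listed genes in the 2 libraries, Mir183 106 and 107, and Mir96 134 and 144. Of the detected genes, 71.5% and 72.6% were lower than Mir182, 71.0% and 70.7% lower than Mir183, and 63.3% and 60.5% lower than Mir96.

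Together the 3 genes held 8374 counts in replicate 1 and 7247 in replicate 2, or 1294 and 1241 CPM. That is 0.127% of sense counts on average. Mir143, a smooth muscle miRNA and the most abundant gene by counted reads, stood at 96423 ± 348 CPM. That was 176-fold above Mir182, 199-fold above Mir183 and 415-fold above Mir96. Reads matching several places, 29.5% of all reads in replicate 1 and 31.9% in replicate 2, enter no gene. The ranks and shares therefore hold among counted reads alone. Sense counts over all listed genes came to 6473482 in replicate 1 and 5841568 in replicate 2. In bulk tissue a small number of cells with much of a miRNA and many cells with little of it cannot be told apart. The tissue label was checked against heart muscle miRNAs, of which 5 of 6 listed genes were detected with summed levels of 67709 and 67125 CPM, led by Mir208b at 58261 ± 1172 CPM. Nearly all of that sum came from Mir208b, Mir208a and Mir499. Mir1a-1, with 19 and 11 counts, and Mir133a-1, with 19 and 14, were low, and reads that match several copies of these genes are not counted.

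**Figure D2:**
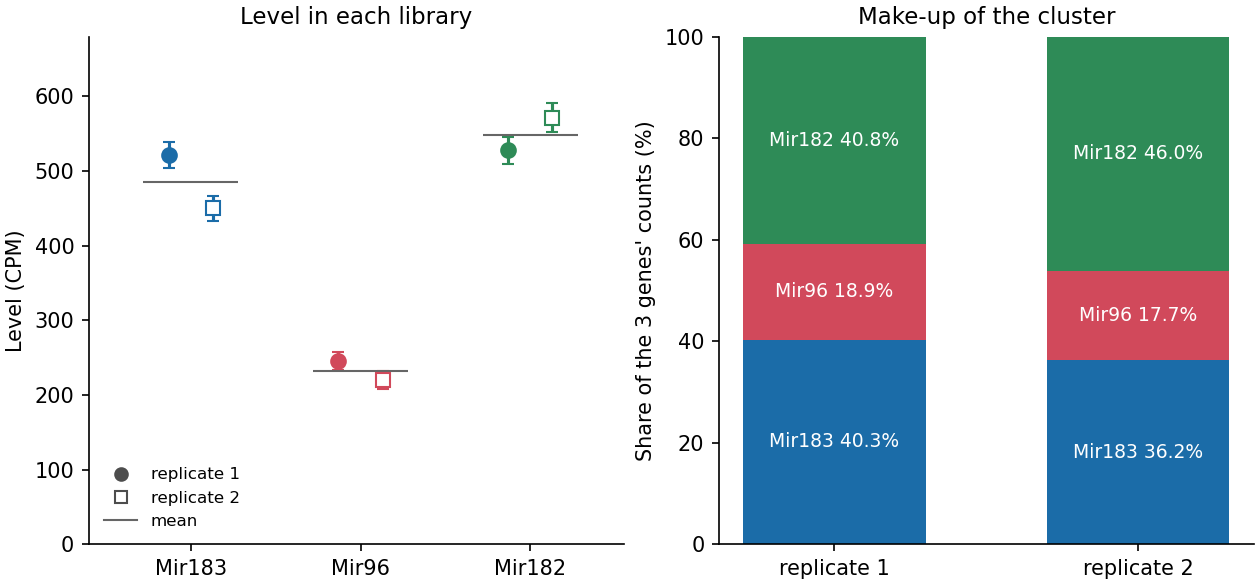
Left, level in CPM of each gene in replicate 1 (filled circle) and replicate 2 (open square) with Wilson 95% intervals, the line marking the mean. Right, percent of the summed counts of the 3 genes held by each; Mir182 held 40.8% in replicate 1 and 46.0% in replicate 2, and Mir96 held 18.9% and 17.7%.

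Ratios within a library do not depend on how libraries are scaled. Mir182 over Mir183 was 1.01-fold in replicate 1 and 1.27-fold in replicate 2, log2 ratios of 0.02 (exact 95% interval -0.05 to 0.09) and 0.35 (0.27 to 0.42). The mean log2 ratio, 0.18 ± 0.23 (SD, n = 2), was smaller than its spread, so the order of Mir182 and Mir183 was not settled by the 2 pools. Mir96 over Mir183 was 0.469-fold and 0.489-fold, log2 ratios of -1.09 (-1.178 to -1.005) and -1.03 (-1.128 to -0.934). Mir96 was thus 2.13-fold and 2.04-fold below its close neighbour, a mean log2 ratio of -1.06 ± 0.04. Mir96 over Mir182 was 0.464-fold and 0.385-fold, log2 ratios of -1.11 (-1.20 to -1.02) and -1.38 (-1.47 to -1.28), mean -1.24 ± 0.19. In both pools Mir96 had fewer counts than either partner by far more than the spread.

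These are ratios of reads, and any difference in how readily each miRNA enters a library was not tested. A small RNA read spans a whole mature miRNA, so counts were not divided by length for the main values. Per 100 hairpin bases, a scale added after the data were seen, levels were 745 and 642 CPM for Mir183, 703 and 761 CPM for Mir182 and 231 and 208 CPM for Mir96. On that scale Mir96 was again below both others in each library. Mir183 stood above Mir182 in replicate 1 and below it in replicate 2.

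The balance inside the cluster differed between the libraries, with a larger share for Mir182 and a smaller one for Mir183 in replicate 2. Of the cluster's counts, Mir182 held 40.8% in replicate 1 (Wilson 95% interval 39.7 to 41.8) and 46.0% in replicate 2 (44.9 to 47.2). Mir183 held 40.3% (39.3 to 41.4) and 36.2% (35.1 to 37.3). Mir96 held 18.9% (18.1 to 19.8) and 17.7% (16.9 to 18.6). The ratio of Mir182 to Mir183 was 1.26-fold higher in replicate 2 than in replicate 1 (two-sided Fisher's exact test on the counts, p = 1.72e-10, adjusted over the 3 pairs 5.17e-10). The ratio of Mir96 to Mir182 was 1.20-fold lower in replicate 2 (p = 3.34e-05, adjusted 5.01e-05, same exact test). For Mir96 and Mir183, the pair that lies 116 bases apart, the ratio differed by 1.04-fold, which was not distinguishable at this depth (Fisher's exact test, p = 0.361, adjusted 0.361). These tests compare the reads of 2 libraries and rest on counting error alone. Each pool has a single library, so pool and library preparation cannot be told apart.

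The 3 genes differed between pools by less than 2-fold, as did most detected genes. After scaling by edgeR's TMM method, which evens out library composition, the log2 ratio of replicate 2 over replicate 1 was 0.14 for Mir182, -0.13 for Mir96 and -0.19 for Mir183. Mir182 was thus 1.10-fold higher in replicate 2, and Mir96 and Mir183 were 1.09-fold and 1.14-fold higher in replicate 1. A call needed an adjusted p under 0.05 in the exact binomial test, Benjamini-Hochberg adjusted over the 365 detected genes, and a 2-fold difference. By that rule 0 of the 3 genes were called, against 3.29% of detected genes, 1.64% higher and 1.64% lower in replicate 2. Without the minimum fold all 3 passed, with adjusted p = 2.14e-04 for Mir182, 0.0408 for Mir96 and 1.97e-06 for Mir183 by the exact binomial test. That rule passed 46.3% of detected genes, 26.0% higher and 20.3% lower in replicate 2, and 60.0% of the 105 genes between 100 and 1000 CPM. The call for Mir96 was lost when genes with low counts were kept (adjusted p = 0.0821, exact binomial test; range over 5 alternatives 0.0119 to 0.0821).

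In size, the shifts were ordinary. The median absolute log2 ratio was 0.14 among those 105 genes, with quartiles of 0.0728 and 0.319. Of the 105, 45 had a larger absolute log2 ratio than Mir183, 50 than Mir182 and 56 than Mir96. The sum of the 3 genes was 1.02-fold higher in replicate 1, so opposite shifts of the members nearly cancelled in the total.

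**Figure D3:**
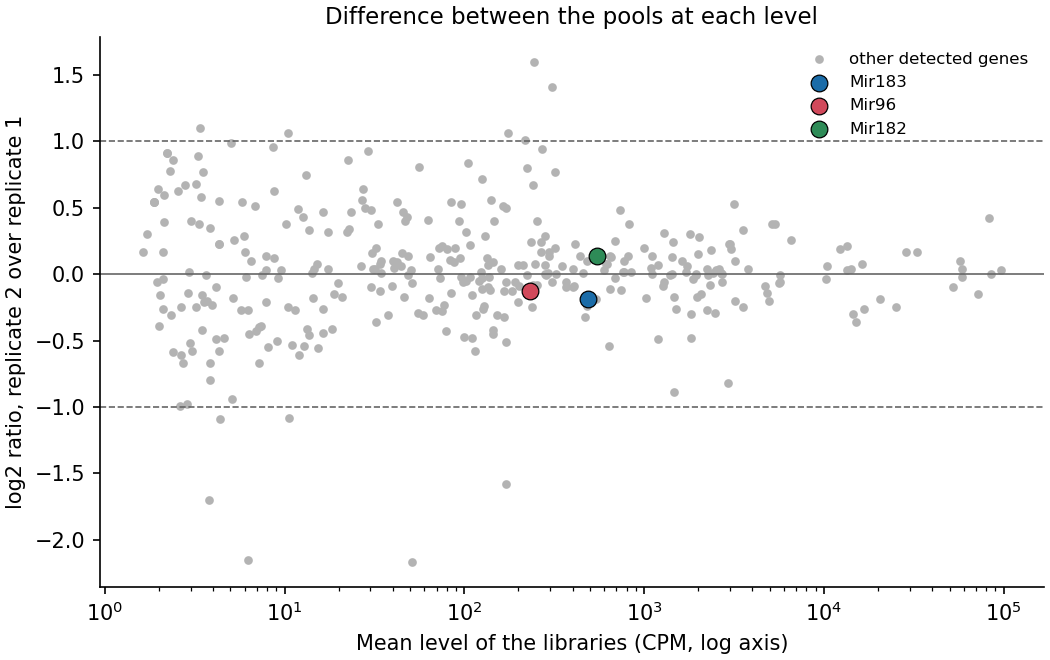
The log2 ratio of replicate 2 over replicate 1 against mean level (CPM, log axis) for the 365 detected genes, grey for others and coloured for the 3 cluster genes; dashed lines mark 2-fold. Mir182 sits at 0.14, Mir96 at -0.13 and Mir183 at -0.19, within the band where most genes of similar level lie.

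In counts, the 3 genes lay closer together in level than the genes of other miRNA clusters with at least 3 detected genes. Detected genes on one strand whose starts lay within 10 kb of the next formed 14 clusters of at least 3 genes. Clusters with fewer detected genes were not compared. The highest gene of each exceeded the lowest by a median of 69.9-fold, up to 2658-fold in the cluster of Mir17. The median was 26.0-fold when starts had to lie within 5000 bases. In the cluster of Mir182, Mir96 and Mir183 the difference was 2.36-fold, 2.16-fold in replicate 1 alone and 2.60-fold in replicate 2 alone, the smallest of the 14 in each case. The next was the cluster of Mir292, Mir293 and Mir294, embryonic stem cell miRNAs, at 2.79-fold and at no more than 12.8 CPM. The miR-200 cluster of Mir429, Mir200a and Mir200b spanned 16.5-fold. Of the 6 clusters with exactly 3 detected genes the median was 16.7-fold. Without genes that share 20 bases with another hairpin, whose reads may be missing, 11 clusters remained with a median of 18.8-fold, and again 0 had a smaller difference. Divided by hairpin length, the difference in the cluster was 3.34-fold and 1 of the other clusters was more even. The clusters differ in their number of genes, and these ranks are a description with no test. The clusters were compared on detected genes alone, so a member under 10 counts does not enter.

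**Figure D4:**
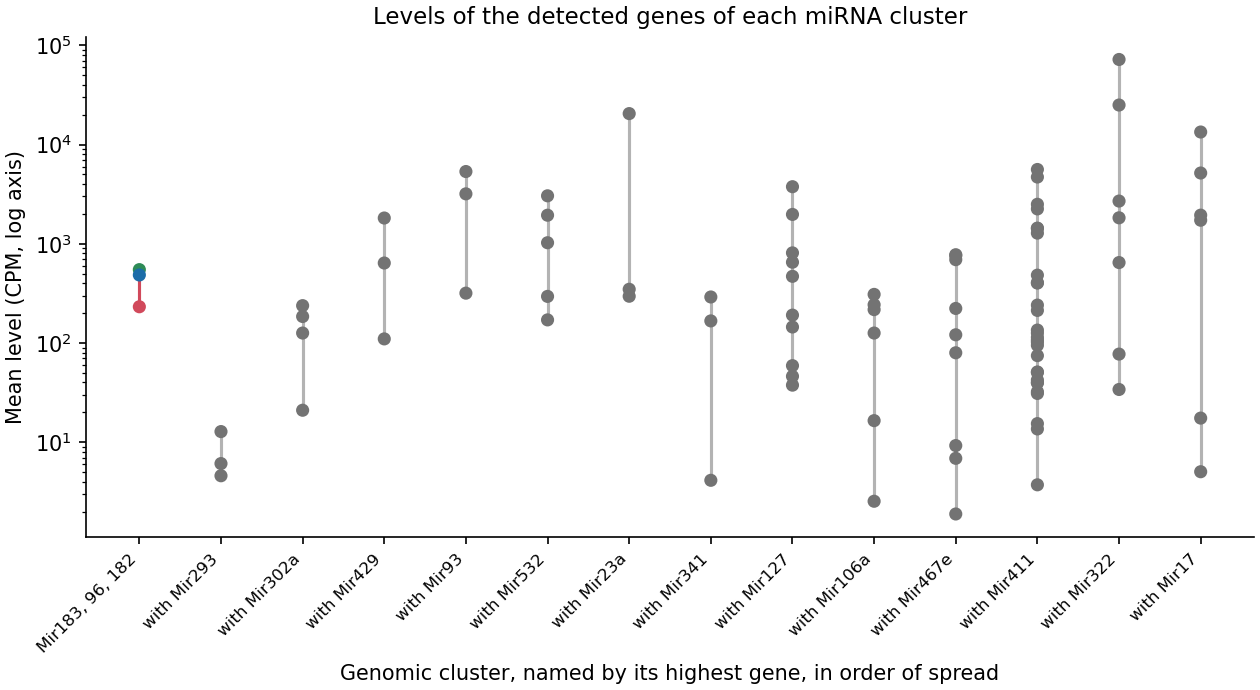
Mean level (CPM, log axis) of each detected gene in the 14 genomic clusters of at least 3 detected genes, ordered by the fold between highest and lowest gene and named by the highest gene. The 3 coloured points of the Mir183 cluster lie between 232 and 549 CPM, a 2.36-fold range, against a median of 69.9-fold over the clusters.

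The log2 ratios of replicate 2 over replicate 1 covered 0.33 within the Mir183 cluster, from Mir183 to Mir182. The median range was 0.45 over the 14 clusters, and 4 of them had a smaller range. Over the 6 clusters of 3 detected genes the median range was 0.33, equal to that of the Mir183 cluster, and 3 had a smaller one. In the miR-200 cluster the 3 genes moved within 0.06 of each other.

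The levels of other miRNAs of sensory, neural and epithelial cells are given beside the cluster, since these cells are its best-known sites. The summed level of 16 listed neural genes was 515 and 722 CPM, below the 1294 and 1241 CPM of the cluster. The neural list lacks reads that match several copies of a gene, so its sum is incomplete. Of its 10 detected genes 5 were higher in replicate 2 and 0 lower without a minimum fold, where 26.0% of all detected genes were higher and 20.3% lower, and 2 of the 16 had 0 counts in both libraries. Its highest genes were Mir128-1 at 188 and 293 CPM and Mir128-2 at 76.2 and 134 CPM. In the retina and its pigment epithelium Mir204 and Mir211 are abundant, and here they summed to 94.8 and 80.8 CPM. Mir204 had 576 and 462 counts. Mir211 had only 38 and 10 counts and was called lower in replicate 2 with the 2-fold minimum, at a log2 ratio of -1.70 (adjusted p = 6.80e-04, exact binomial test). The neuroendocrine genes, 4 of 4 detected, summed to 816 and 815 CPM, nearly all from Mir375, a miRNA of endocrine islets and other secretory cells, at 771 and 767 CPM.

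The epithelial list, 11 of 11 detected, was the highest of these at 6432 and 5172 CPM. It was led by Mir429 at 2132 and 1506 CPM and Mir200c at 1399 and 978 CPM. Without a minimum fold 6 of its genes were lower in replicate 2 and 1 was higher, where 20.3% of all detected genes were lower and 26.0% higher, and its median log2 ratio was -0.19. The 6 were Mir429, Mir200a and Mir200b, which lie in one cluster, Mir200c and Mir141, which lie in another, and Mir203, so they are not 6 separate observations. With the 2-fold minimum, which 3.29% of all detected genes passed, no gene of the epithelial, neural or neuroendocrine list was called. Of the retina list Mir211 was called, on 10 counts in replicate 2, the limit for detection. Mir183 and Mir96 were lower in replicate 2, as were those 6 epithelial genes, but the sizes differed. The log2 ratios were -0.19 for Mir183 and -0.13 for Mir96. They were -0.48 to -0.54 for the epithelial genes of those clusters and -0.19 for Mir203. Mir182 was higher, as was Mir205 of the epithelial list, at 616 and 843 CPM with a log2 ratio of 0.48. The other 4 genes of that list did not pass without a minimum fold. The part of epithelial or neural cells in the levels of the cluster was not tested.

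The other listed miRNA genes within 1000000 bases are given with their values, and their difference from the cluster was not tested. Mir335, inside the imprinted gene Mest and 572 kb away on the opposite strand, stood at 71481 and 93666 CPM, with a log2 ratio of 0.42. Mir29a, 893 kb away on the same strand, stood at 220 and 286 CPM, a log2 ratio of 0.40 (adjusted p = 4.84e-14, exact binomial test). Its partner Mir29b-1 had only 23 and 14 counts, a log2 ratio of -0.52 that did not pass (adjusted p = 0.456, same exact test). The listed genes Gm26220 and Gm23049 had 0 counts in both libraries.

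The genes closest in level were found by Euclidean distance over log2 CPM in the 2 libraries. Nearest to Mir183 were Mir1193 at 520 and 446 CPM (distance 0.014), Mir455 at 528 and 440 CPM and Mir195a at 543 and 460 CPM. Nearest to Mir96 were Mir543 at 250 and 232 CPM (distance 0.080), Mir302a at 261 and 216 CPM and Mir669o at 226 and 221 CPM. Nearest to Mir182 were Mir708 at 596 and 599 CPM (distance 0.189), Mir320 at 600 and 622 CPM and Mir203 at 583 and 503 CPM. With 2 libraries this likeness reflects level more than pattern. No member of the cluster was among the 3 nearest genes of another member.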

How the data were processed

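Small RNA of 2 pools of E16.5 mouse hearts was sequenced. Raw counts per miRNA gene were deposited for each library, made on mm10 with annotation M4 per the file lists deposited with them. The aligner, counter and trimming are not given in the sources used here. Of the 3 count columns, one sums both strands and the others hold a strand each; the larger strand column was taken as sense. The 4 summary lines, which belong to no gene, were left out of totals: reads matching several places were 29.5% and 31.9% of reads, unmapped reads 22.4% and 17.2%. Sense counts were 42.6% and 45.3% of reads.

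CPM is sense counts per 1000000 sense counts at genes. With one group, edgeR's quasi-likelihood test had no contrast, so libraries were compared by a two-sided exact binomial test on counts with TMM-scaled library sizes (edgeR 4.0.16, R 4.3.3), adding 0.5 counts for log2 ratios. The test was checked on simulated counts that held counting error alone, so the check does not cover variation between pools. Fisher's exact test, Wilson and Clopper-Pearson intervals used scipy 1.17.1; hairpins were folded with RNAfold 2.7.2. Intervals and the floor of 3 counts cover counting error only, since no molecular identifiers are given. Symbols and coordinates came from GENCODE M21 (1894 of 1973 identifiers matched), sequences from RefSeq. Alternatives included total-count scaling, DESeq2 1.42.0 size factors, other count limits and the unstranded column.

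Genes named beside the cluster were those sharing a seed, those within 1000000 bases, the 3 nearest in level to each member, the 2 highest of marker lists and the most abundant gene. Genes of other clusters and further genes of the marker lists were named after their values were seen. The members and lists were chosen with earlier results of these data known.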

Additional observations from a re-analysis of the deposited data

Results flagged for a closer look

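The opposite-strand column held 5 counts at Mir183 in replicate 1, above the 3 counts that a count of 0 allows, and 0 in replicate 2. Mir96 and Mir182 had 0 opposite-strand counts in both libraries. The 5 counts compare with 3375 sense counts at the same gene.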

How the results depend on the processing

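Over 5 other scalings, count limits and strand choices the log2 ratio of replicate 2 over replicate 1 stayed between -0.21 and -0.19 for Mir183, between -0.15 and -0.13 for Mir96 and between 0.11 and 0.14 for Mir182, and none was called with the 2-fold minimum. Dropping that minimum made calls of all 3, at -0.19, -0.13 and 0.14, by a rule that 46.3% of all detected genes passed. With no filter on low counts Mir96 did not pass (adjusted p = 0.0821, exact binomial test). The 12 genes called over all genes became 21 with no filter on low counts, 5 with at least 50 counts in each library and 169 with no minimum fold. With all reads as the denominator the levels were 213, 102 and 242 CPM for Mir183, Mir96 and Mir182, and without the most abundant gene 537, 257 and 608 CPM. The unstranded column gave 517 CPM for Mir182. Per 100 hairpin bases, an alternative chosen after seeing the data, Mir183 stood at 693 CPM and Mir182 at 732 CPM. Dividing by hairpin length moved the log2 ratio of Mir96 to -1.66 over Mir183 and -1.74 over Mir182, and the spread in the cluster to 3.34-fold. These shifts follow from the denominators. Leaving out either replicate gave 450 to 521 CPM for Mir183, 220 to 245 CPM for Mir96 and 528 to 571 CPM for Mir182, and log2 ratios of 0.02 to 0.35 for Mir182 over Mir183. No paired analysis was possible because the labels give a single group. Leaving out a replicate leaves 1 library, so the comparison of libraries has no value then.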
